A study of Mus musculus with 13 samples.

Results

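The imprinted growth genes followed here through mouse mammary fibroblasts were H19, Igf2, Dlk1, Meg3, Mest, Peg3, Plagl1, Cdkn1c, Grb10 and Ndn. They were chosen by symbol from earlier results of these data, in which H19 stood out under hormone treatment and Dlk1 among the developmental stages. They are 10 of all genes listed in the files, and all 10 had counts in each of the 13 libraries. Levels are given as CPM, UMIs of a gene per 1000000 UMIs summed over the fibroblast barcodes of a library. A UMI is a counted molecule, and 100523 of 120355 barcodes met the fibroblast rule of 500 to 7500 genes, at most 10% mitochondrial UMIs, at least 50 UMIs of Dcn, Lum and Col1a2 per 10000 and no UMI of Epcam, Pecam1, Rgs5, Sox10, Ptprc or Myog.

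The study profiled female mammary stroma by droplet sequencing across development, after hormone stimulation and in a Wnt1-driven tumour model. Wild-type C57BL/6 glands gave 1 library each at puberty (4 weeks in the labels), in the virgin adult (9 weeks), at day 14.5 of pregnancy, day 10 of lactation and day 4 of involution. Wild-type adult mice received pellets of placebo or MPA+E, the progestin medroxyprogesterone acetate with estrogen, and their glands were taken at 9 weeks, with 2 libraries for each. These 9 libraries came from sorted cells without lineage markers and without CD24, and each pooled a pair of females. The 2 hyperplasia and 2 tumour libraries came from GFP-positive cells of raGFP-Wnt1 mice, with mouse 1 aged 45 weeks and mouse 2 aged 17 weeks. These mice carry Pdgfra-GFP KI/+ and MMTV-Wnt1 T/+ on a mixed C57BL/6 and FVB/NJ background. The MMTV promoter drives Wnt1 mainly in the mammary epithelium, and the GFP allele marks cells that express Pdgfra. Normal tissue (puberty and adult) therefore differed from hyperplasia in disease state, strain, age and sorting gate at once, and these cannot be told apart.

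Imprinted genes are expressed mainly from a single parental copy, and many act on fetal growth. At the H19-Igf2 locus the maternal copy makes H19, a long non-coding RNA and host of miR-675, while the paternal copy makes the growth factor Igf2. At the Dlk1-Dio3 locus the paternal copy makes Dlk1, a transmembrane relative of the Notch ligands that restrains adipocyte differentiation, and the maternal copy makes the non-coding RNAs Meg3 and Rian. Several of these genes are high in the embryo and low in most adult tissues.

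Positions are those of GENCODE M21 on GRCm38. H19 (chr7:142575529-142578143, minus strand) and Igf2 (chr7:142650766-142666816, minus strand) were 72.6 kb apart, and Dlk1 (chr12:109452823-109463336, plus strand) and Meg3 (chr12:109541001-109571726, plus strand) were 77.7 kb apart. Cdkn1c (chr7:143458339-143461050, minus strand), Peg3 (chr7:6703892-6730431, minus strand) and Ndn (chr7:62346569-62350262, plus strand) share chromosome 7 with them. Mest lies at chr6:30723547-30748465 and Plagl1 at chr10:13060504-13131694, both on the plus strand, and Grb10 at chr11:11930508-12038683 on the minus strand. Mest overlaps Copg2 and Igf2 overlaps Igf2os on the opposite strand, and Gm49394 overlaps Igf2 on the same strand, so single reads there could be assigned differently by another annotation.

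MicroRNA genes lie on the same strand within H19 (Mir675), Mest (Mir335), Igf2 (Mir483) and Meg3 (Mir770 and Mir1906-1), and microRNAs were not measured by this chemistry. The mature sequences for H19 and Mest are shown as examples, because a level of these members below is the level of a host transcript. Capitals mark the seed, bases 2 to 8 (RefSeq, GRCm38.p6).
mmu-miR-675-5p: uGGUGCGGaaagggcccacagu
mmu-miR-675-3p: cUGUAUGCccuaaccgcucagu
mmu-miR-335-5p: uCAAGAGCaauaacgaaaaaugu
mmu-miR-335-3p: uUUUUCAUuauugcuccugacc
The 4 seeds differed from each other. miR-675 lies in H19 (5p arm at chr7:142577112-142577133, minus strand) and miR-335 in Mest (5p arm at chr6:30741314-30741336, plus strand).

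Plagl1, Meg3 and Grb10 were the members that fell together in hyperplasia, as described below, and the 250 bases before their RefSeq starts are shown for that reason. For Meg3 and Grb10, which have 2 entries each, the entry with more CpG dinucleotides was taken. Capitals mark CpG dinucleotides.
Plagl1 (chr10:13090582-13090831, plus strand): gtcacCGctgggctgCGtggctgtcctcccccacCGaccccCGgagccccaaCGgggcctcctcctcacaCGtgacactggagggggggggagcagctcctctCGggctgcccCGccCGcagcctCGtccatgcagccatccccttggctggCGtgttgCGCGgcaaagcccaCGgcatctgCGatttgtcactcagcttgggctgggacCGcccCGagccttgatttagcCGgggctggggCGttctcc
Meg3 (chr12:109540746-109540995, plus strand): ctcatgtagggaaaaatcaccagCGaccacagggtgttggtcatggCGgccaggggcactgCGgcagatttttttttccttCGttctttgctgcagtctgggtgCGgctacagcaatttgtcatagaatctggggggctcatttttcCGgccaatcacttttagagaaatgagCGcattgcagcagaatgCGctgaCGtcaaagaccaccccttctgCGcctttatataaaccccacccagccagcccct
Grb10 (chr11:12037421-12037670, minus strand): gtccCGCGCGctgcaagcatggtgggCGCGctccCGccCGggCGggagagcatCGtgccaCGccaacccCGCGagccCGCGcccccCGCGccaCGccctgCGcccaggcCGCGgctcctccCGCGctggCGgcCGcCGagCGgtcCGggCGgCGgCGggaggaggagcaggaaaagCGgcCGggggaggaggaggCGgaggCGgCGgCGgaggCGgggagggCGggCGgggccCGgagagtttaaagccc
The windows held 19 CpG in Plagl1, 10 in Meg3 and 40 in Grb10, against a median of 6 over all 32851 promoter entries, and 98.7% of all entries held fewer than Grb10. A GC box (GGGCGG on either strand) was found in the Plagl1 window and in 1 of 2 Grb10 entries, in no Meg3 entry, and in 32.7% of all entries. The palindrome GGGGCCCC, a core of the sites bound by Plagl1 protein, was in none of these windows and in 0.889% of all entries, and among the 8 members with a promoter entry Peg3 had it.

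Depth was high enough to count all members. Fibroblast barcodes numbered 4236 (tumour 2) to 11951 (adult) per library, with 47521842 to 102522735 summed UMIs and a median of 3990 to 20256 UMIs per barcode. Defining fibroblast markers were high (17212 to 26440 CPM for Dcn, Lum, Pdgfra and Col1a2 summed), while the summed endothelial and pericyte lists stayed at or below 1.13 and 8.28 CPM. The fibroblast rule itself required Dcn, Lum and Col1a2 and barred Epcam, Pecam1, Rgs5 and Sox10. Those genes are part of the summed lists and are no independent check of purity. Macrophage markers summed to 29.2 and 25.5 CPM in hyperplasia and to 1.65 to 11.1 CPM in the other libraries. Epithelial markers summed to 37.7 CPM in pregnancy and at most 3.43 elsewhere, Schwann markers to 51.1 in puberty and 1.46 to 21.7 elsewhere, and keratinocyte markers to 149.9 in hyperplasia 2 and 20.4 to 60.4 elsewhere. Any 2 libraries shared at most 34 barcodes and at most 0.503% of the barcodes of the smaller.

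The plot of levels by library shows that the members did not all move the same way. Igf2 was sparse, with 25 to 113 UMIs in a library and 0.526 to 2.32 CPM. A summed level does not separate fewer barcodes with a transcript from fewer UMIs in each.

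**Figure D1:**
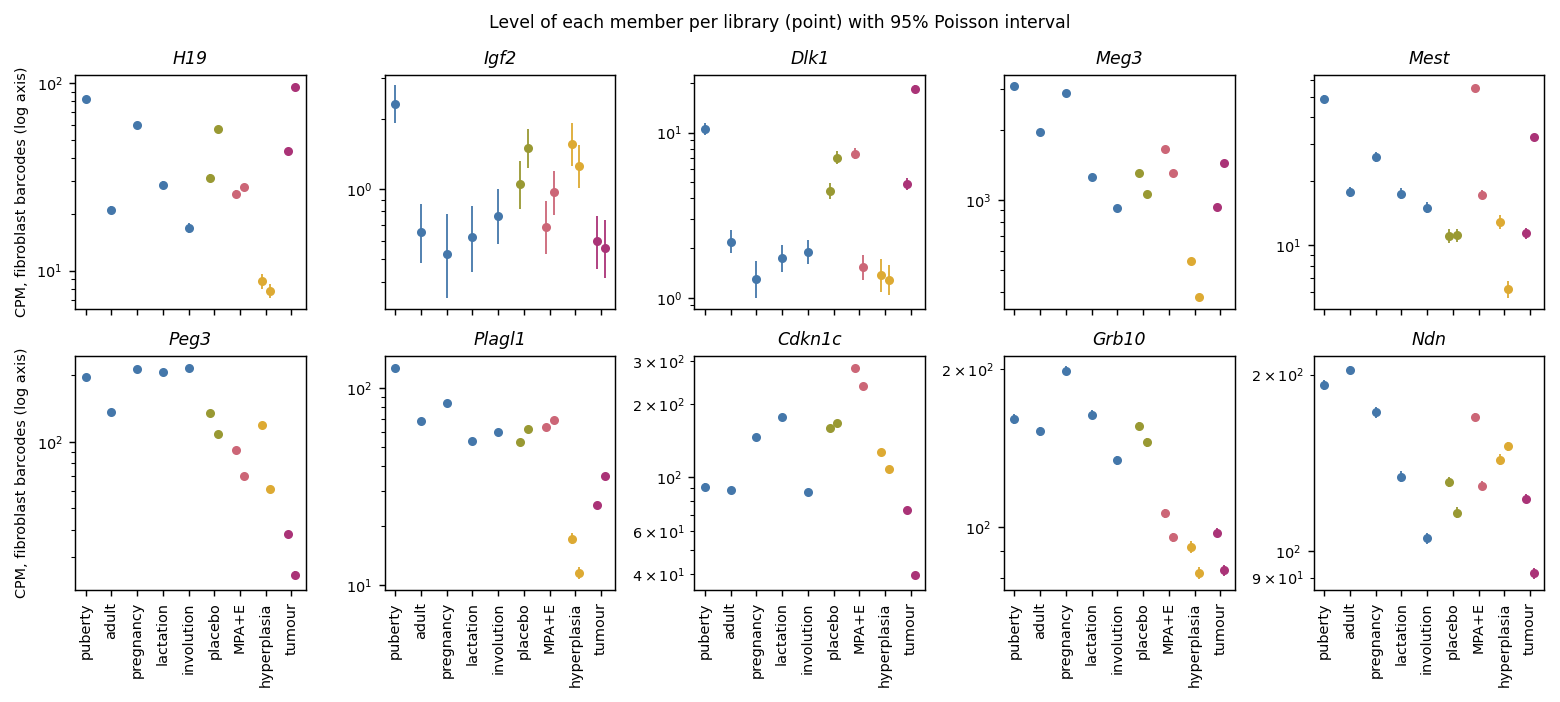
CPM of each member over fibroblast barcodes (log axis) in 13 libraries, grouped by condition, with 1 point a library and 95% exact Poisson intervals that cover counting error only. H19, Meg3 and Plagl1 were lower in both hyperplasia libraries than in the other 11, and Peg3 was lowest in both tumour libraries.

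Across the stages, with 1 library each and no test, 6 of the 10 members were highest in puberty, where 16.9% of the 17535 genes with a UMI in every stage were highest. Dlk1 is among the 6 and was chosen from these values, so nothing is read from the count. H19 was highest in puberty at 82.4 CPM (95% Poisson interval 79.8 to 85.0), followed by pregnancy at 59.7, lactation at 28.7, the adult gland at 21.0 and involution at 16.9 CPM, a 4.88-fold range with a counting interval of 4.58 to 5.20. Dlk1 was at 10.5 CPM in puberty and between 1.30 and 2.19 CPM in the other 4 stages, whose neighbours in that order did not differ beyond counting error. H19 had a second high level in pregnancy, and Dlk1 was at its lowest there.

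Meg3 followed the order puberty (3103 CPM), pregnancy (2879), adult (1953), lactation (1257) and involution (924). Mest, a protein of the hydrolase fold named after its expression in mesoderm, was at 48.9 CPM in puberty and 15.0 in involution, and Plagl1, a zinc finger transcription factor, at 126 CPM in puberty and 53.9 in lactation. H19, Meg3, Mest and Plagl1 all had puberty as their highest stage and pregnancy as the next. Schwann markers were highest in puberty and epithelial markers in pregnancy, and their part was not tested.

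The other members had their highest stage elsewhere. Cdkn1c, the cyclin-dependent kinase inhibitor p57, was highest in lactation (176 CPM) and lowest in involution (86.9 CPM). Grb10, an adaptor that restrains insulin and IGF receptor signalling, was highest in pregnancy (198 CPM), and Ndn, a MAGE family protein that limits proliferation, in the adult (203 CPM). Peg3, a zinc finger protein, ranged from 137 CPM in the adult to 216 CPM in involution. Of 40 pairs of stages next to each other in a member's order, 11 had a ratio whose counting interval included 1, among them the adult and puberty for Cdkn1c and pregnancy and involution for Peg3. Each stage held 1 pool of mice, so that the spread between pools of a stage is not known. The placebo pools, also at 9 weeks but with a pellet, were at 31.3 and 57.3 CPM for H19 against 21.0 in the adult. Cdkn1c was at 160 and 167 against 88.8 CPM and Meg3 at 1299 and 1058 against 1953 CPM, while Grb10 was closer (156 and 145 against 152 CPM). For H19 placebo 2 was near pregnancy (59.7 CPM), and for Cdkn1c both were near lactation.

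Members differed in the fibroblasts that held them. Barcodes were gated by a pair of markers: Pi16 and Dpp4 (progenitor), Fabp4 and Cd36 (preadipocyte), Crabp1 and Pla2g7 (ECM remodelling), Thbs4 and Cilp (lobular), and Gdf10 and Clec11a (adipogenesis-regulatory), with at least 1 UMI of both genes of exactly 1 pair. Each gate was compared with the sum of the other 4 gates of the same library in the 9 wild-type libraries by a two-sided exact sign-flip permutation test of the mean log2 ratio of CPM + 1, adjusted by Benjamini-Hochberg over the 12333 genes tested. The progenitor gate was the largest, with 33708210 UMIs in the adult against 5353256 in the lobular gate, the next there. A ratio in another gate is thus largely a ratio to the progenitor gate. Calls of a member in different gates are not separate results. The smallest p that 9 libraries allow is 0.00391. With a library left out the smallest possible p is larger, so that a call can be lost with its ratio unchanged. Such a loss alone does not show dependence on that library. Values below are the lowest, median and highest CPM over the 9 libraries, and fold differences are on the CPM + 1 scale.

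In the progenitor gate, Meg3, Plagl1 and Grb10 were higher and Igf2, Mest and Peg3 lower, 6 of 10 members against 53.2% of all genes called in either direction. Grb10 was at 147, 200 and 257 CPM in the progenitor gate and at 25.8, 39.2 and 84.0 CPM in the ECM remodelling gate. Its progenitor ratio was 2.31-fold (mean log2 ratio 1.21, 9 of 9 libraries, exact permutation adjusted p = 0.0110). Meg3 (1.93-fold) and Plagl1 (1.95-fold) were higher in 9 of 9 libraries as well, with the same exact adjusted p of 0.0110.

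Peg3 was distributed the opposite way to Grb10 between the progenitor and preadipocyte gates. It was at 28.1, 81.5 and 128 CPM in the progenitor gate and at 184, 279 and 491 CPM in the preadipocyte gate. The preadipocyte ratio was 2.91-fold (mean log2 ratio 1.54, 9 of 9 libraries, exact permutation adjusted p = 0.0213). H19 was the other member that was higher in the preadipocyte gate, at 22.5, 80.1 and 238 CPM against 8.33, 25.2 and 66.1 CPM in the progenitor gate. Its ratio to the other gates was 3.30-fold in 9 of 9 libraries (exact permutation adjusted p = 0.0213). The 9 libraries include both MPA+E libraries, where the H19 fall led to its choice. The H19 calls in this and the other gates are not independent of that choice and are read as a description. With a gate of at least 2 UMIs of each marker the H19 ratio lost its call (exact adjusted p = 0.156), and over all 13 libraries, where the tumour preadipocyte gates held 20 and 8 barcodes and no H19, it also did (exact adjusted p = 0.683). In this gate 6 of 10 members were called, against 28.3% of all genes, with Dlk1, Meg3, Plagl1 and Grb10 lower. The preadipocyte medians of Meg3 (1026 CPM) and Plagl1 (45.5 CPM) were below the progenitor gate (1777 and 82.7 CPM) and the lobular gate (1051 and 54.3 CPM). They were above the adipogenesis-regulatory gate (783 and 30.9 CPM) and the ECM remodelling gate (670 and 21.4 CPM). The lower calls of Dlk1 and Plagl1 here were each lost without any 1 of 8 libraries (exact adjusted p up to 0.0788), and at 2 UMIs of each marker (0.212 and 0.0503). With 1 library left out their log2 ratios were -1.32 to -0.93 (Dlk1) and -0.74 to -0.51 (Plagl1). Over all 13 libraries Plagl1 was not called either (exact adjusted p = 0.933). The Dlk1 median in the preadipocyte gate was 0.350 CPM, below the 1 CPM added before each ratio.

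In the ECM remodelling gate Cdkn1c alone was higher, and Meg3, Plagl1, Grb10 and Ndn were lower (5 of 10 members, against 35.9% of all genes). Cdkn1c was at 106, 567 and 1096 CPM there and at 47.2, 88.3 and 210 CPM in the progenitor gate. The ratio was 5.18-fold and above 1 in 8 of 9 libraries (mean log2 ratio 2.37, exact permutation adjusted p = 0.0261). This call was lost without placebo 1, placebo 2 or MPA+E 2 (exact adjusted p of 0.0504, 0.0502 and 0.0501) and at 2 UMIs of each marker (0.0626). With 1 library left out the mean log2 ratio was 2.21 to 2.68. In puberty this gate held 9 barcodes.

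Mest and Igf2 were higher in the lobular and adipogenesis-regulatory gates. Mest was at 22.4, 43.7 and 170 CPM in the lobular gate and at 5.12, 10.1 and 32.1 CPM in the progenitor gate. The lobular ratio was 3.23-fold in 9 of 9 libraries (exact permutation adjusted p = 0.0166). Dlk1 was 2.51-fold higher in the lobular gate in 9 of 9 libraries with the same exact adjusted p, at 1.44, 3.57 and 31.3 CPM. Igf2 was 2.14-fold higher in the lobular gate in 8 of 9 libraries (exact permutation adjusted p = 0.0259), but its median there was 2.32 CPM. The Igf2 median was 1.80 CPM in the adipogenesis-regulatory gate and 0.470 CPM in the progenitor gate. These are near or below the 1 CPM added before each ratio.

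Peg3 completed the lobular set at 1.48-fold, while H19, Meg3 and Grb10 were lower there (7 of 10 members, against 36.6% of all genes). Against single gates the order differed. The lobular median of Meg3 (1051 CPM) was below the progenitor gate (1777) but above the preadipocyte (1026), adipogenesis-regulatory (783) and ECM remodelling (670) gates. That of Peg3 (167 CPM) was below the preadipocyte (279) and adipogenesis-regulatory (173) gates and above the ECM remodelling (110) and progenitor (81.5) gates. The lower H19 call was lost without any 1 of 7 libraries (exact adjusted p up to 0.0656) and over all 13 libraries (exact adjusted p = 0.735), where the lower Meg3 and Grb10 calls were lost as well (0.0692 and 0.261). With 1 library left out the H19 log2 ratio was -1.28 to -0.93. In the adipogenesis-regulatory gate 9 of 10 members were called, against 43.2% of all genes. Igf2, Mest, Peg3 and Ndn were higher and H19, Meg3, Plagl1, Cdkn1c and Grb10 lower, with Ndn the smallest of the higher ratios at 1.30-fold. The Mest call there was lost at 2 UMIs of each marker (exact adjusted p = 0.0637). The gates select barcodes of different depth, with median UMIs in the adult of 3846 in the ECM remodelling gate and 7556 in the preadipocyte gate, and the part of depth was not tested.

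**Figure D2:**
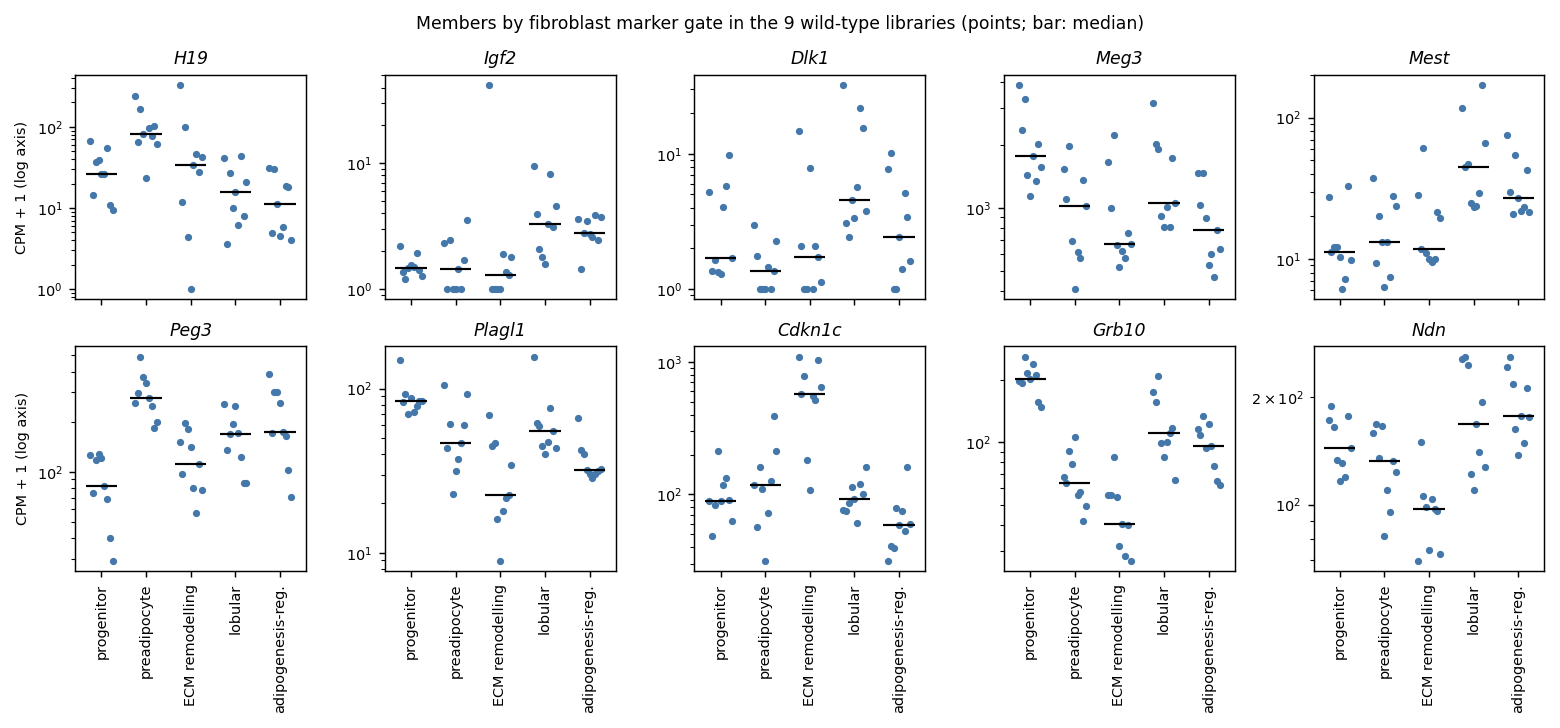
CPM + 1 (log axis) of each member in the 5 marker gates, with 1 point for each of the 9 wild-type libraries and a bar at the median. Grb10 was at 147 to 257 CPM in the progenitor gate and at 25.8 to 84.0 CPM in the ECM remodelling gate, and Peg3 was lower in the progenitor gate than in the preadipocyte gate.

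The UMIs were spread unevenly over barcodes for some members and evenly for others. At 2000 UMIs per barcode, the variance of a gene's UMIs over their mean is near 1 for counts at a common level. It was 1.04 to 1.10 for Ndn and 1.09 to 1.23 for Grb10, but 1.79 to 4.49 for H19 and 3.34 to 6.19 for Meg3 over all fibroblast barcodes of a library. This ratio grows with a gene's level, and Meg3 was the most abundant member. Without thinning, the top 5% of barcodes held a median of 27.0% of Meg3 UMIs, near Grb10 (25.4%) and Ndn (20.4%). For H19 that share was 94.8% and for Dlk1 100%, though sparse genes reach high shares by their level alone. H19 reached 155 UMIs in a single barcode of placebo 2. Dlk1 reached 127 UMIs in a single barcode of tumour 2, and 88 in MPA+E 1.

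Some pairs of members were found in the same barcodes more often than their separate frequencies give. Odds ratios were taken per library at 2000 UMIs per barcode, as a description with no test, since barcodes of a library share their source. Dlk1 and Mest had a median odds ratio of 4.43, above 1 in 12 of 13 libraries, from 72 barcodes with both against 23.5 from independence. Dlk1 and Plagl1 had a median of 2.73, and Meg3 and Plagl1 of 1.72, both above 1 in 13 of 13 libraries. Dlk1 and its neighbour Meg3 had a median of 2.91, above 1 in the 12 libraries that gave a value.

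Peg3 and Grb10 were the pair most often apart, with a median odds ratio of 0.710 and values above 1 in 2 of 13 libraries. H19 and Igf2 shared 16 barcodes in all, against 7.47 from independence, and Igf2 was too sparse for a range.

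Over the 13 library sums, the 5 genes with the highest Pearson r of log2(CPM + 1) with H19 were Serf1 (0.909), Vamp3 (0.903), Cdk16 (0.892), Pycr1 (0.867) and E2f1 (0.866). For Dlk1 they were Atp5mpl (0.860), Tfdp1 (0.818), Smco4 (0.814), Aspn (0.807) and Psmg1 (0.800). These are the top of all genes at a mean of at least 10 CPM, over libraries that share condition and depth, and are a description. Among the members, Meg3 and Plagl1 (r = 0.894) and Peg3 and Grb10 (r = 0.818) were alike over libraries, although Peg3 and Grb10 were apart over barcodes.

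Under MPA+E against placebo, Grb10 was the only one of 9 members tested that passed the threshold, and it fell. Grb10 was at 156 and 145 CPM in placebo and at 106 and 95.5 CPM in MPA+E. Its log2 fold change was -0.57 (SE 0.09, edgeR adjusted p = 0.0409). The members' count was 0 higher, where 2.69% of all 15642 genes were called, and 1 lower, where 1.64% were. The median log2 fold change was 0.21 over the 9 members and 0.01 over all genes. The Grb10 call was lost without any 1 of the 4 libraries, with its log2 fold change between -0.60 and -0.54. In these fits 1 library stands alone in its group and the spread comes from the other group, so no p is given. The call was lost as well with non-fibroblasts kept (edgeR adjusted p = 0.0629) and with no filter on low counts (edgeR adjusted p = 0.0607).

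Cdkn1c, Peg3 and Mest had an unadjusted p under 0.05 without passing the threshold. With the replicate number as a block they passed (edgeR adjusted p of 0.00531, 0.00324 and 0.0210). That block raised the genes called in all from 678 to 2451, and placebo and MPA+E libraries share only the number. Cdkn1c was at 160 and 167 CPM in placebo and at 283 and 238 CPM in MPA+E, with a log2 fold change of 0.68 (SE 0.12, edgeR adjusted p = 0.0549). DESeq2 (adjusted p = 0.000367) and limma-voom (adjusted p = 0.0498) put it past the threshold. Peg3 was at 135 and 109 CPM in placebo and at 91.9 and 69.97 CPM in MPA+E (log2 fold change -0.58, SE 0.14, edgeR adjusted p = 0.103), and DESeq2 put it past the threshold (adjusted p = 0.0128). Mest was at 11.0 and 11.1 CPM in placebo and at 55.3 and 17.3 CPM in MPA+E (log2 fold change 1.70, SE 0.51, edgeR adjusted p = 0.165). MPA+E 1 set the size of the Mest value, which was 0.70 without it and 2.28 without MPA+E 2. In each of these the remaining MPA+E library stands alone, so no p is given, as for Grb10. Calls moved both ways in such fits, lost for Grb10 and gained for Mest, Peg3 and Dlk1. Meg3, Plagl1, Ndn, Igf2 and Dlk1 did not pass either, and Dlk1 was at 7.46 and 1.54 CPM in the MPA+E libraries against 4.45 and 7.06 CPM in placebo. The Dlk1 log2 fold change was -1.86 without MPA+E 1, and its sign turned without placebo 2 or MPA+E 2.

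H19 was chosen for its fall in this contrast, so its values are a description with no test. Over all fibroblast barcodes it was at 31.3 and 57.3 CPM in placebo and at 25.7 and 28.1 CPM in MPA+E. In the progenitor gate it was at 25.2 (95% Poisson interval 23.6 to 27.0) and 54.3 (52.0 to 56.8) CPM in placebo and at 9.93 (8.93 to 11.0) and 8.33 (7.46 to 9.27) CPM in MPA+E. The groups did not overlap in the progenitor gate, and the fitted log2 difference there was -2.12. With 2 libraries a group many genes do not overlap by chance. The share of all genes without overlap is not given, here or below, so nothing is read from it. In the preadipocyte gate H19 was at 94.9 and 75.3 CPM in placebo and at 100.5 and 61.2 CPM in MPA+E, which overlapped, as they did in the other 3 gates.

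Whether the hormone difference of the other members differed between the progenitor gate and the mean of the other 4 gates was tested by edgeR on gate sums. None of 9 members passed, while 0.292% of 12334 genes were called higher and 0.446% lower in the progenitor gate, and 2 members had an unadjusted p under 0.05. These were Cdkn1c (difference of log2 fold changes -1.59, SE 0.48, edgeR adjusted p = 0.186) and Peg3 (-0.69, SE 0.21, edgeR adjusted p = 0.211). With no filter on low counts both passed (edgeR adjusted p of 3.53e-13 and 0.0163), at differences of -1.64 and -0.74, close to the main fit. The genes called in all then went from 91 to 420. The gate sums of a library share that library, and with the library as a block, chosen after seeing the data, both passed as well (-1.58 and -0.69, edgeR adjusted p of 0.0180 and 0.0221) and the genes called went from 91 to 553. As values, Cdkn1c was lower with MPA+E in the progenitor gate (117 and 133 against 89.5 and 61.5 CPM) and higher in the preadipocyte gate (71.9 and 125 against 389 and 212 CPM). Peg3 was lower with MPA+E without overlap in the progenitor gate (81.5 and 67.3 against 38.9 and 28.1 CPM), the preadipocyte gate (279 and 246 against 184 and 199 CPM), the lobular gate and the adipogenesis-regulatory gate. Its ECM remodelling values overlapped (78.7 and 55.6 against 109.7 and 76.4 CPM).

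As values with no test, Mest was higher with MPA+E without overlap in 4 of 5 gates, and it overlapped in the adipogenesis-regulatory gate. The share of all genes without overlap is not given, so nothing is read from this. Mest was at 22.6 and 28.3 against 169.8 and 65.0 CPM in the lobular gate. In the ECM remodelling gate Mest was at 8.51 and 9.02 against 20.5 and 18.4 CPM, and in the progenitor gate at 5.12 and 6.19 against 32.1 and 8.87 CPM. The ECM remodelling gate held 6.36% and 4.95% of fibroblast barcodes in placebo and 9.51% and 9.23% in MPA+E. Within that gate Cdkn1c was at 553 and 514 CPM in placebo and at 1042 and 648 CPM in MPA+E, with no overlap. The part of gate shares in its level over all fibroblasts was not tested.

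**Figure D3:**
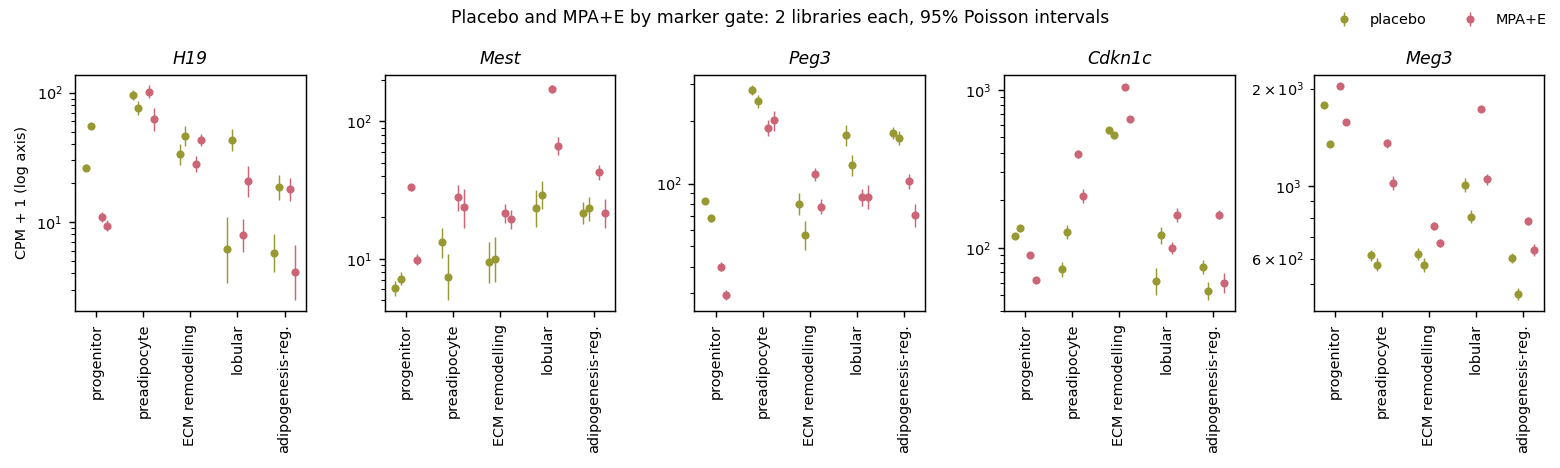
CPM + 1 (log axis) of 5 members in the 5 marker gates, with 2 placebo and 2 MPA+E libraries as points and 95% exact Poisson intervals. H19 in the progenitor gate was at 9.93 and 8.33 CPM in MPA+E against 25.2 and 54.3 CPM in placebo, while its preadipocyte values overlapped.

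In hyperplasia against normal tissue, Plagl1, Meg3 and Grb10 fell and no member rose (3 of 9 lower, where 6.29% of 16302 genes were called lower and 7.7% higher). Dlk1 was left out of this count, since the puberty value that led to its choice is in the normal group. Plagl1 was at 126 and 67.95 CPM in puberty and adult and at 17.2 and 11.5 CPM in hyperplasia. Its log2 fold change was -2.78 (SE 0.37, limma-voom adjusted p = 0.0128). Meg3 was at 3103 and 1953 CPM in normal tissue and at 542 and 382 CPM in hyperplasia, with a log2 fold change of -2.48 (SE 0.33, limma-voom adjusted p = 0.0128). Grb10 was at 161 and 152 against 91.6 and 81.6 CPM (log2 fold change -0.89, SE 0.17, limma-voom adjusted p = 0.0285).

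H19 was at 82.4 and 21.0 CPM in normal tissue and at 8.76 and 7.79 CPM in hyperplasia, with a log2 fold change of -2.37 (SE 0.71, limma-voom adjusted p = 0.0700), and edgeR put it just past the threshold (adjusted p = 0.0472). The H19 value depended on puberty, at -1.35 without it and -3.38 without the adult. Peg3 did not pass (log2 fold change -0.98, limma-voom adjusted p = 0.134), but with the mouse as a block it did (adjusted p = 0.0368). The 3 calls were lost in limma-voom without puberty, without hyperplasia 1 or without hyperplasia 2, where few genes were called in all. The Grb10 call was lost without the adult as well. Leaving out either tumour library, outside this comparison, moved calls the other way for H19, Mest and Ndn. Their log2 fold changes were then -2.37, -1.78 and -0.47, close to the main fit.

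The share of progenitor-gate barcodes, where Meg3, Plagl1 and Grb10 were higher in wild-type libraries, was 42.7% and 39.1% in puberty and adult and 24.98% and 29.1% in hyperplasia. Within the progenitor gate Plagl1 was at 148 and 81.4 CPM in normal tissue and at 19.9 and 10.9 CPM in hyperplasia, and Meg3 at 3891 and 2368 against 1050 and 694 CPM. Grb10 in that gate was at 196 and 191 CPM in normal tissue and at 167 and 137 CPM in hyperplasia. The groups did not overlap for any of the 3, which is common by chance with 2 libraries a group and was not tested. The ECM remodelling gate, where Grb10 was lowest, held 0.126% and 1.72% of barcodes in puberty and adult and 27.6% and 25.7% in hyperplasia. The part of gate shares in the levels of Plagl1, Meg3 and Grb10 was not tested. The macrophage markers that were higher in hyperplasia (29.2 and 25.5 CPM summed) are given above, and their part was not tested.

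In tumours against hyperplasia, H19 and Meg3 rose and Peg3 and Cdkn1c fell (2 higher, where 15.4% of all genes were, and 2 lower, where 13.9% were). H19 was at 8.76 and 7.79 CPM in hyperplasia and at 43.7 and 95.6 CPM in tumours. Its log2 fold change was 2.98 (SE 0.72, limma-voom adjusted p = 0.0278), with both mice in the same direction. Meg3 went from 542 and 382 CPM to 934 and 1443 CPM (log2 fold change 1.35, SE 0.33, limma-voom adjusted p = 0.0276), and both tumour values stayed below the puberty and adult values.

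Peg3 was at 119 and 61.3 CPM in hyperplasia and at 38.3 and 25.03 CPM in tumours (log2 fold change -1.47, SE 0.38, limma-voom adjusted p = 0.0339), and its value was -0.98 without hyperplasia 1 and -1.95 without hyperplasia 2. Cdkn1c was at 127 and 108 CPM in hyperplasia and at 73.3 and 39.4 CPM in tumours (log2 fold change -1.12, SE 0.31, limma-voom adjusted p = 0.0382), a call that was lost with non-fibroblasts kept (adjusted p = 0.112). The Cdkn1c value was -0.64 without tumour 2 and -1.59 without tumour 1. Plagl1 (log2 fold change 1.11, SE 0.36, limma-voom adjusted p = 0.0606) and Dlk1 (2.82, SE 1.08, limma-voom adjusted p = 0.0917) were higher in both tumours without passing. With the fibroblast limit of 100 per 10000 Plagl1 passed in limma-voom (adjusted p = 0.0470), and Dlk1 passed in edgeR (adjusted p = 0.0446). Dlk1 was at 1.38 and 1.28 CPM in hyperplasia and at 4.90 and 18.4 CPM in tumours, and its size depended on tumour 2 (1.91 without it, 3.77 without tumour 1). Grb10 was at 91.6 and 81.6 against 97.4 and 82.6 CPM (log2 fold change 0.05, SE 0.17). With the mouse as a block the 4 calls held (limma-voom adjusted p of 0.0106 to 0.0382). Without hyperplasia 1 or hyperplasia 2 no member was called (limma-voom adjusted p of 0.0604 to 0.197 for these 4), Meg3 and Peg3 were lost without tumour 2 (0.0568 and 0.0762), and Peg3 and Cdkn1c without puberty or the adult (0.0540 to 0.0692).

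Markers of other cells also moved between hyperplasia and tumours. Pericyte markers summed to 0.726 and 0.511 CPM in hyperplasia and to 3.06 and 8.28 CPM in tumours, all from Mcam, since the fibroblast rule leaves Rgs5 at 0. Macrophage markers went from 29.2 and 25.5 to 6.58 and 9.14 CPM, Schwann markers from 15.6 and 21.7 to 9.12 and 1.46 CPM and keratinocyte markers from 59.3 and 149.9 to 36.4 and 20.4 CPM. Tumour 2 was highest of the 4 libraries for the pericyte sum, H19, Meg3 and Dlk1. The part of these cells in the members' levels was not tested.

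The median log2 fold change was 0.58 over the 10 members and -0.01 over all genes. By gate, H19 in tumours was at 116 and 205 CPM in the lobular gate, against 18.2 and 33.9 CPM in hyperplasia, and at 30.4 and 84.1 against 11.4 and 10.3 CPM in the progenitor gate. A gate is defined by its marker pair only. Thbs4 in the lobular gate was at 619 and 336 CPM in tumours and at 1233 to 4351 CPM in the other 11 libraries, so these barcodes were not shown to be the same class in tumours and hyperplasia. The lobular gate of hyperplasia 2 held 21 barcodes. Cdkn1c was lower in the ECM remodelling gate of tumours, at 62.9 and 37.6 CPM against 170 and 187 CPM in hyperplasia and 1096 and 567 CPM in puberty and adult. In the progenitor gate Cdkn1c was at 96.9 and 94.5 CPM in tumours and 133 and 84.0 CPM in hyperplasia, which overlapped.

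**Figure D4:**
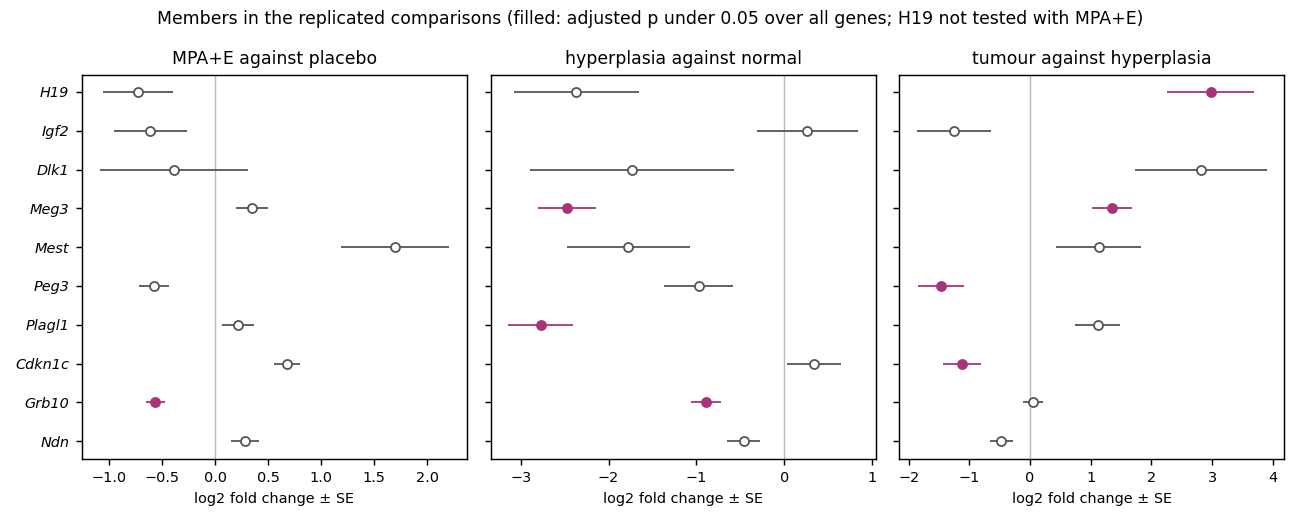
Log2 fold change with its standard error for the 10 members in the 3 replicated comparisons, with filled points for an adjusted p under 0.05 over all genes; H19 with MPA+E and Dlk1 in hyperplasia are descriptions. Grb10 alone passed with MPA+E (-0.57), Plagl1, Meg3 and Grb10 in hyperplasia (-2.78, -2.48 and -0.89), and H19, Meg3, Peg3 and Cdkn1c in tumours (2.98, 1.35, -1.47 and -1.12).

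Of 38 other imprinted genes, 34 were tested with MPA+E and 33 in each of the other comparisons. With MPA+E 1 rose and 2 fell, in hyperplasia 1 rose and 3 fell, and in tumours 4 rose and 6 fell. Over all genes the shares called higher and lower were 2.69% and 1.64%, 7.7% and 6.29%, and 15.4% and 13.9%, and nothing is read from the list's counts. Their median log2 fold changes were -0.03, -0.25 and -0.06. Dio3, the deiodinase that inactivates thyroid hormone and the far end of the Dlk1-Meg3 locus, had the largest change with MPA+E and in tumours among the named genes of this list. It was at 0.230 and 0.236 CPM in placebo (16 and 17 UMIs) and at 11.0 and 7.32 CPM in MPA+E (960 and 667 UMIs), a log2 fold change of 5.29 (SE 0.27, edgeR adjusted p = 0.00629). It was at 0.478 and 0.525 CPM in hyperplasia and at 15.9 and 25.3 CPM in tumours, a log2 fold change of 5.30 (SE 0.45, limma-voom adjusted p = 0.00260). In hyperplasia against normal tissue Dio3 fell by 2.00 on the log2 scale (SE 0.51, limma-voom adjusted p = 0.0486). It was at 1.60 and 2.34 CPM in puberty and adult, and hyperplasia held 27 and 38 UMIs. Other wild-type libraries lay on both sides of hyperplasia, with placebo and lactation (0.317 CPM) below and involution (0.673 CPM) and pregnancy (0.926 CPM) above. The Dio3 fall thus depends on the libraries taken as normal.

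Its neighbours Dlk1 (-0.39) and Meg3 (0.34) did not pass with MPA+E. Rian, the non-coding RNA next to Meg3, fell in hyperplasia (546.8 and 370.6 against 165.8 and 96.8 CPM, log2 fold change -1.86, limma-voom adjusted p = 0.0269). Asb4, an imprinted ubiquitin ligase subunit, fell there too (log2 fold change -2.66, limma-voom adjusted p = 0.0285), and Zrsr1, a splicing factor gene, rose (1.31, limma-voom adjusted p = 0.0108). Zim1, next to Peg3, and Ppp1r9a, a neuronal actin-binding protein, fell with MPA+E (log2 fold changes of -1.06 and -0.62, edgeR adjusted p of 0.0347 and 0.0395). In tumours Peg12 rose (1.58, limma-voom adjusted p = 0.0215), and Kcnq1ot1, the non-coding RNA of the Cdkn1c locus, and Slc38a4, an amino acid transporter, fell (-1.39 and -1.14, limma-voom adjusted p of 0.00708 and 0.0113).

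Of 18 partners of the members in IGF, Notch and cell cycle control, 15 were tested. None passed with MPA+E, where 1 had an unadjusted p under 0.05. In hyperplasia Irs2, an adaptor of the insulin and IGF receptors, and Cdk2 rose (log2 fold changes of 1.07 and 0.92, limma-voom adjusted p of 0.0387 and 0.0322), and Igf2bp2, a protein that binds Igf2 mRNA, fell (-1.27, 0.0476). In tumours 2 rose and 4 fell, among them Igf2bp2 (-1.35, limma-voom adjusted p = 0.0406), Irs2 (-1.32, 0.0156), the insulin receptor Insr (-0.86, 0.0371) and Cdk4 (0.98, 0.0412). Over all genes 7.7% rose and 6.29% fell in hyperplasia and 15.4% and 13.9% in tumours, and nothing is read from counts this small. The medians of this list were -0.06, 0.46 and -0.43.

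Outside the fibroblast rule the members had other sites. Barcodes with at least 2 UMIs of 1 marker, none of the other markers and few fibroblast UMIs were summed where a library held at least 20. H19 had medians of 0 CPM in Epcam-positive (epithelial) and Pecam1-positive (endothelial) and 1.09 CPM in Rgs5-positive (pericyte) barcodes, against 28.1 to 28.7 CPM in fibroblasts of the same libraries, and its 95% Poisson interval lay below that of fibroblasts in 6 of 7, 4 of 7 and 8 of 9 libraries. Igf2 was at 3.13 to 29.5 CPM in Rgs5-positive barcodes against 0.526 to 2.32 CPM in fibroblasts, with its interval above that of fibroblasts in 6 of 9 libraries. In the adult and in lactation the Igf2 value there was 1 UMI. Dlk1 was at 3.28 to 61.9 CPM in Rgs5-positive barcodes against 1.30 to 10.5 CPM, with its interval above in 5 of 9 libraries. Mest was at 30.1 to 364 CPM in Pecam1-positive barcodes against 11.0 to 55.3 CPM, with its interval above in 5 of 7 libraries. These sums describe only the barcodes that passed the sort.

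**Figure D5:**
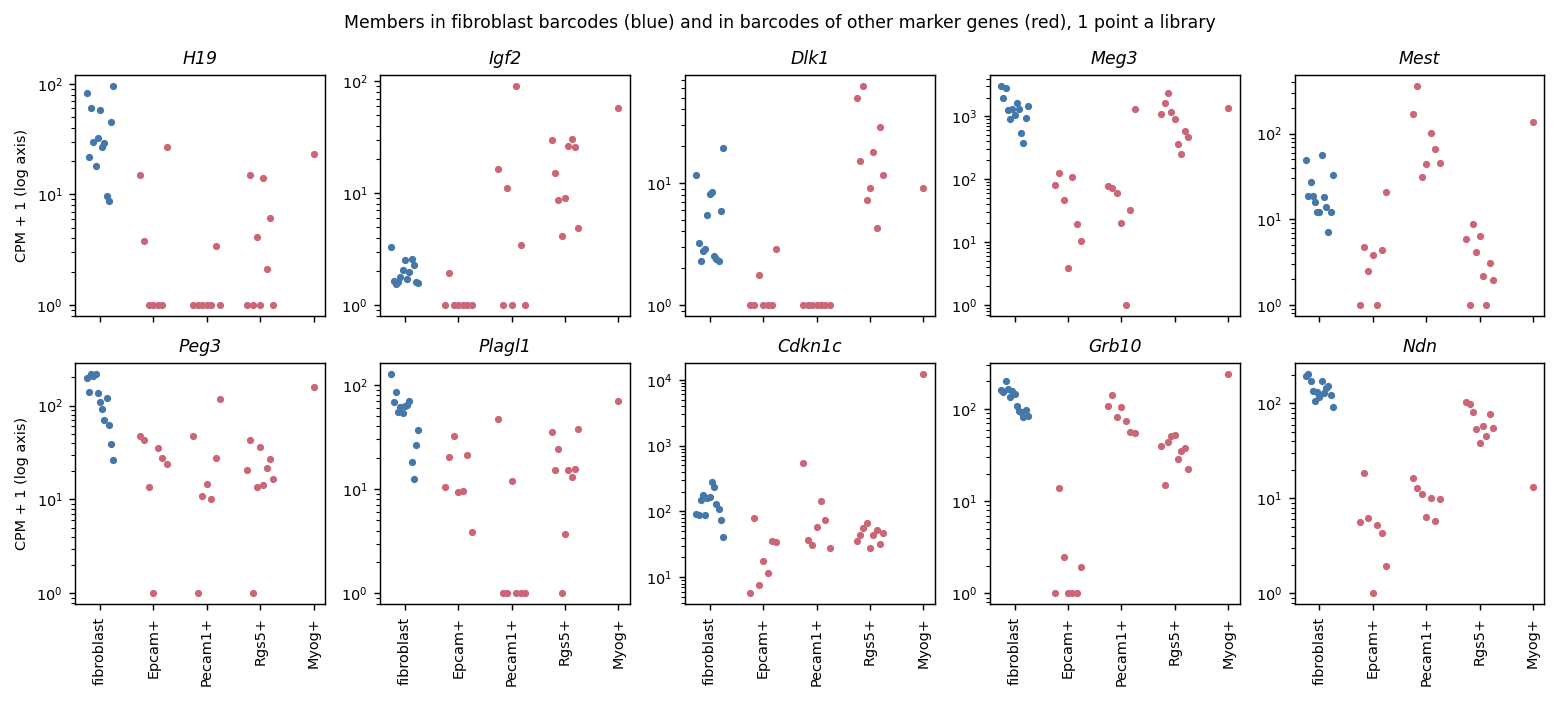
CPM + 1 (log axis) of the members in fibroblast barcodes of 13 libraries (blue) and in Epcam-, Pecam1-, Rgs5- and Myog-positive barcodes (red), with 1 point a library of at least 20 such barcodes. Igf2 and Dlk1 lay beyond counting error above fibroblasts in 6 and 5 of 9 libraries of Rgs5-positive barcodes, Mest in 5 of 7 of Pecam1-positive barcodes, and Cdkn1c reached 12275 CPM in the Myog-positive barcodes of puberty.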

How the data were processed

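Stromal cells of 13 libraries were sequenced by the authors with 10x droplet 3' chemistry. The deposited values are unnormalised UMI counts for each gene in each barcode, which the authors made with Cell Ranger 6.1.2 and build mm10 (submitters' processing notes), for barcodes that passed its cell filter. The annotation release was not given in the sources used here. GENCODE M21 on GRCm38 served for positions only.

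Members and lists were chosen with earlier results of these data known. Barcodes were kept by the fibroblast rule and counts were summed per library. No doublet caller was run, and barcodes with other cells' markers were removed instead. Libraries held 56551189 to 112550204 UMIs, and intervals (exact Poisson, 95%) cover counting error only. Placebo and MPA+E were compared by edgeR 4.0.16 (quasi-likelihood, TMM, filterByExpr), and normal, hyperplasia and tumour by limma-voom (version 3.58.1 of limma), all 6 libraries sharing a fit, with Benjamini-Hochberg adjustment over all genes and a threshold of 0.05. Both were run on simulated counts with known changes and a single spread for all genes. That spread need not match the real libraries, so the simulation does not vouch for the p-values here. Hyperplasia and tumour libraries of 1 number came from 1 mouse, and after centring on each group their values had a correlation of 0.0954 over 16001 genes. Gate ratios were adjusted over all 12333 genes at a mean of at least 1 CPM, not over the 50 member and gate pairs as designed. All 10 members are named, and of the lists at most 4 called genes of largest change per comparison. Alternatives were other barcode limits, scalings, tests, offsets, each library left out, a replicate block and, for gates, a library block (DESeq2 1.42.0 for the hormone groups). P-values of MPA+E against placebo and of the gate ratios measure the spread between libraries, each hormone library a pool of mice. In the fit of 6 libraries the spread includes the difference between puberty and adult, which were joined as normal. This enters the tumour p-values as well. The test of hormone differences between gates took the gate sums of a library as independent. Its p-values therefore do not measure the spread between libraries alone.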

Additional observations from a re-analysis of the deposited data

Results flagged for a closer look

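In the Myog-positive barcodes of the puberty library (Myog marks differentiating muscle), which no comparison used, Cdkn1c was at 12275 CPM, against 91.4 CPM in the fibroblasts of that library. Igf2 was at 56.4 CPM and Mest at 135 CPM in the same barcodes, against 2.32 and 48.9 CPM. These are 82 barcodes of 1 library.

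Among the called ratios between marker gates, 2 libraries lay far from the other 8. The log2 ratio of Meg3 in the ECM remodelling gate was -0.44 in pregnancy, the highest of 9 libraries. The log2 ratio of Grb10 in the preadipocyte gate was -0.68 in involution, also the highest. Chance flags about 1 in 20 such groups, and 33 were looked at.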

How the results depend on the processing

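The count of members called with MPA+E was 1 and became 2 with the fibroblast limit of 100 per 10000, without the 5% deepest barcodes, without TMM and with limma-voom, 3 with DESeq2, and 0 with non-fibroblasts kept or with no filter. Over all genes 678 were called in the main fit and 457 to 1312 in these alternatives. With 1 library left out the member count moved both ways and was 0 in some fits. The number of genes called in all moved both ways as well. Placebo and MPA+E share only replicate numbers (deviations correlated at 0.396). A replicate block called 4 members, where 2451 of 15642 genes were called. The count in hyperplasia was 3, ranged from 0 to 6 with a library left out and was 4 with the mouse as a block. In tumours it was 4, ranged from 0 to 8, and stayed 4 with the block. The number of genes called in all moved as well in both comparisons. Of 16302 genes, 2280 were called for hyperplasia and 4777 for tumours in the main fit, and 3471 and 6089 with the mouse block. With a library left out, that number was lower at the lowest member counts and higher at the highest. The ranges of member counts are therefore not read on their own. No member passed the test of its hormone difference between gates. With the replicate block 1 did (Peg3, edgeR adjusted p = 0.0290), and 2 did (Peg3 and Cdkn1c) with no filter or with the library as a block. The genes called in all went from 91 to 401, 420 and 553 in these 3 settings. Member pairs found together in all libraries numbered 5 at 2000 UMIs and 2 at 1000. The 33 called gate ratios kept their direction under each alternative.

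The sign turned for some small values. Without 1 library, Dlk1 with MPA+E reached 0.32 from -1.86, Igf2 in hyperplasia spanned -0.79 to 1.09 and Grb10 in tumours -0.089 to 0.21. With non-fibroblasts kept Igf2 and Cdkn1c in hyperplasia were -0.28 and -0.29, and edgeR gave Igf2 -0.12. In the gate difference Dlk1 spanned -1.59 to 0.88, Mest -0.26 to 0.93 and Plagl1 -0.27 to 0.020. The cause was not tested. Where a library was left out, the one left in its group was assumed to vary like the other groups, and the hormone fits then took their spread from 1 pair.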
